A study of Homo sapiens with 6 samples.

Results

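A block of 160 protein-coding genes at the tip of the short arm of human chromosome 19, band 19p13.3, was followed in LN229 cells that overexpress HSD52. The members were all protein-coding genes of the deposited count table on chromosome 19 whose lowest coordinate lay between 281040 and 5668478 (hg38), with zinc finger genes named ZNF and complex I genes named NDUF left out. They were 160 of the 19951 protein-coding genes in the table, which held 58735 genes in all. The block was picked because its genes were lower in the same HSD52_OE libraries, so the fold changes of its members are given as a description of how they were chosen, with no test of the block. Members were compared with 168 protein-coding genes of the next stretch of 19p, from 5668479 to 12000000, under the same name rule.

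The distal end of 19p is one of the most gene-dense and GC-rich stretches of the human genome. Its genes are mostly short, and most are active in nearly every cell type. They include the kinase genes STK11 and MAP2K2, chromatin genes such as DOT1L and UHRF1, and genes of the transcription, splicing and translation machinery, next to a few clusters used in single lineages, such as the neutrophil elastase genes. The files hold RNA counts alone, with no measure of DNA copy number or chromatin.

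LN229 is an established human glioblastoma line. The HSD52_OE libraries came from LN229 cells with HSD52 overexpression and the control libraries from LN229 cells that the labels call wild type. Each group had 3 libraries. The series asked how gene expression differs when HSD52 is overexpressed. HSD52 is a long non-coding RNA gene on chromosome 1. The labels name no vector, promoter, clone, culture time or empty-vector control, and they do not say that replicates came from separate cultures, so p-values measure only the spread between these libraries. The RNA was bulk poly-A RNA, in which fewer cells of a type and less RNA per cell cannot be told apart.

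Library totals ran from 17777157 to 18917790 counts, and 1 CPM, a count scaled to the library total by TMM, stood for about 18 counts. HSD52 had 1252, 1336 and 1327 counts in the HSD52_OE libraries, against 11, 7 and 12 counts in the control libraries. Of 8 glioma and glial markers only CHI3L1 was at 0 in every library, and the 8 together summed to 2760 to 2818 CPM in HSD52_OE libraries and 2882 to 3225 CPM in control libraries. The granule genes MPO, PRTN3 and CTSG were at 0, as were CD3E and CDH1, and 3 endothelial markers summed to at most 2.22 CPM in any library. The 3 fibroblast markers summed to 32.3 to 33.5 CPM in HSD52_OE libraries, against 62.8 to 93.3 CPM in control libraries, and the 3 epithelial markers to 49.0 to 52.0 CPM against 23.3 to 27.9 CPM, nearly all from KRT8. The part of either set in the results was not tested. Control libraries differed more among themselves than HSD52_OE libraries did, and the chi-square divided by its degrees of freedom was 2.29 to 3.76 between HSD52_OE pairs and 16.1 to 19.7 between control pairs.

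Most genes of the block were lower in HSD52_OE cells. Of the 160 members, 118 had enough counts to be tested, and 95 of these were called lower, 5 higher and 18 neither. A gene was called when its Benjamini-Hochberg adjusted p in edgeR's quasi-likelihood test over all 16322 tested genes was under 0.05. The background was 25.6% of all tested genes called lower and 25% called higher, and 30.1% and 21.4% of the 13155 tested protein-coding genes. Because the block was chosen on this contrast, nothing is read from the gap between its count and the background. The HSD52_OE and control libraries did not overlap in 93 lower and 6 higher members, where 29.3% of all tested genes were separated downward and 29.6% upward, and 34.3% and 25.7% of tested protein-coding genes. The other 42 members were not tested, since 12 had no count in any library and the most abundant of the rest, FGF22, averaged 0.526 CPM.

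The size of the difference was modest and similar along the block. The median log2 fold change of the tested members, HSD52_OE over control, was -0.61, a ratio of 0.657, with quartiles of -0.82 and -0.34 and a range of -1.62 to 1.75. Over all tested protein-coding genes the median was -0.06. In 15 members the level was lower by at least a factor of 2, in 57 the log2 fold change lay between -1 and -0.5, in 33 between -0.5 and 0, and in 13 it was positive. Those 15 were C2CD4C, CBARP, PALM, MEX3D, DIRAS1, TLE2, TICAM1, TBXA2R, CNN2, MKNK2, CDC34, MED16, BTBD2, GAMT and MFSD12. All of them were called lower, and 3.49% of all tested genes and 3.75% of tested protein-coding genes were called lower at that size. In windows of 1 Mb the median ran from -0.73 over the 17 members of the first window and -0.58, -0.65 and -0.55 over the next 34, 23 and 18 members to -0.45 over the 23 members between 4 and 5 Mb, and it was -0.57 for the last 3. No window of members thus had a median near 0, and the most negative one lay closest to the chromosome end.

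**Figure D1:**
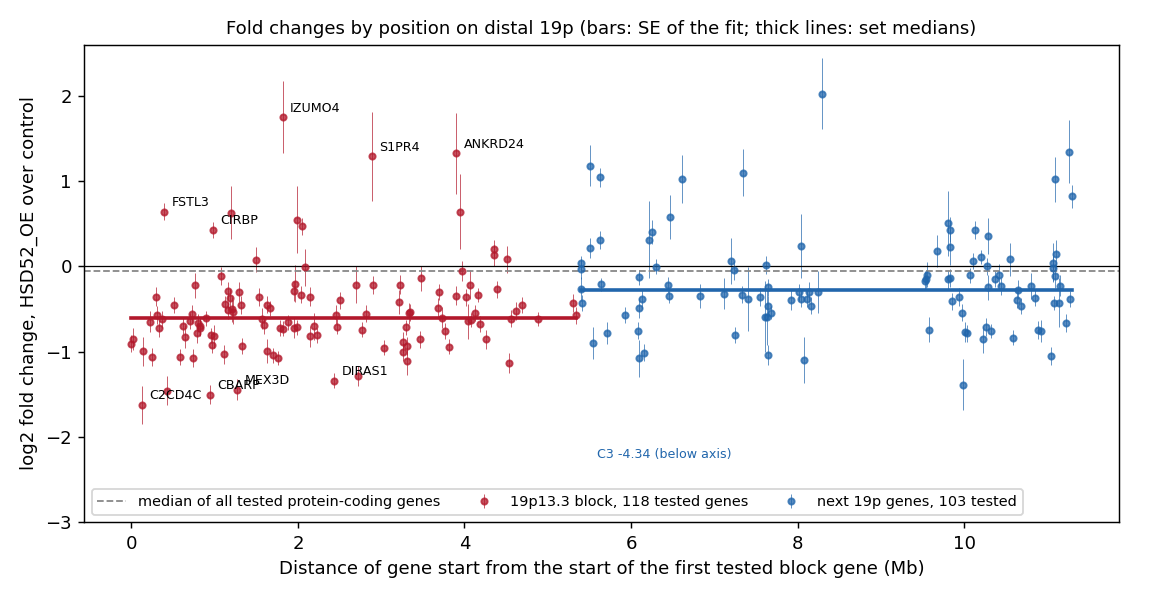
Log2 fold changes (HSD52_OE over control, y axis) of tested genes by the distance of the gene start from the first tested block gene (x axis, Mb), with bars for the standard error of the fit, thick lines at set medians and a dashed line at the median of all tested protein-coding genes. The 118 block genes have a median of -0.61 and the 103 next 19p genes a median of -0.27, and points of both sets lie on either side of 0. C3, of the next 19p genes, lies below the axis at -4.34.

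The low level was seen in each HSD52_OE library. For each library the median over the tested members of the log2 deviation from the control mean was -0.55, -0.62 and -0.58 in HSD52_OE libraries, against -0.003, 0.16 and -0.16 in control libraries. The mean was -0.58 ± 0.04 in HSD52_OE cells, against a spread of 0.16 between control libraries (SD, n = 3 each). The 3 HSD52_OE libraries were close to each other, while control replicates 2 and 3 stood above and below the control mean, and the groups did not overlap. In counts, the block took 1.20% ± 0.020 of each HSD52_OE library and 1.6% ± 0.122 of each control library. The coefficient of variation of a member between replicates had a median of 4.95% in HSD52_OE cells and 13.6% in control cells, against 5.34% and 11.2% over tested protein-coding genes.

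The first tested gene of the block was PLPP2, a lipid phosphate phosphatase gene, with 46.3, 50.4 and 50.6 CPM in the HSD52_OE libraries, against 102, 97.4 and 77.0 CPM in the control libraries. Its log2 fold change was -0.91 ± 0.10, where ± is the standard error of the fit. MIER2, next in line and a gene of histone deacetylase complexes, had 21.4 ± 0.906 CPM in HSD52_OE cells and 38.8 ± 7.87 CPM in control cells, a log2 fold change of -0.85 ± 0.13. C2CD4C, the third, showed the lowest fold change of all tested members, with 2.42, 1.56 and 1.88 CPM in the HSD52_OE libraries, against 6.36, 7.0 and 4.72 CPM in the control libraries, and a log2 fold change of -1.62 ± 0.22. No tested protein-coding gene lies between PLPP2 and the end of the chromosome, so this side has no outer neighbour. At the inner end stood PTPRS, a receptor tyrosine phosphatase gene, at -0.62 ± 0.08, and the overlapping scaffold attachment factor genes SAFB2 and SAFB at -0.43 ± 0.11 and -0.57 ± 0.10. Just outside, RPL36, of the large ribosomal subunit, had 369.6 ± 9.94 CPM in HSD52_OE cells and 359.9 ± 26.2 CPM in control cells, a log2 fold change of 0.04 ± 0.09. C19orf70 followed at -0.03 ± 0.11 and HSD11B1L at -0.27 ± 0.14, and none of the 3 was called. The groups of RPL36 and C19orf70 overlapped and those of HSD11B1L did not. The next tested gene, LONP1, a mitochondrial protease gene, was called lower at -0.43 ± 0.09 with groups apart, and NRTN, MLLT1 and CLPP, named after their values were seen, were called lower further in at -0.90, -0.57 and -0.75. The end of the rule therefore does not mark the last gene called lower. PRR22, VMAC and CAPS, which lie between LONP1 and MLLT1, were called higher at 1.18, 1.04 and 0.31. Genes just past the border were thus called in both directions.

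The kinase and phosphatase genes of the block were lower without exception among those tested. Of 9 members in this list 7 were tested and 7 called lower, with a median log2 fold change of -0.61. For this and each later role list, the background was 25.6% of all tested genes called lower and 25% higher. Of tested protein-coding genes it was 30.1% and 21.4%. Members were picked for low values in this contrast, so the counts and medians of the role lists are a description. MAP2K2 (4090321 to 4124129, minus strand), which encodes MEK2, the kinase that activates ERK1 and ERK2, had 115, 107 and 103 CPM in the HSD52_OE libraries, against 212, 219.9 and 193 CPM in the control libraries. All HSD52_OE libraries lay far below the lowest control library, at -0.94 ± 0.09 on the log2 scale. STK11 (1177558 to 1228435, plus strand) encodes LKB1, the kinase that activates AMPK under low energy and a tumour suppressor. It had 83.7, 73.3 and 79.6 CPM in the HSD52_OE libraries, against 119, 131 and 111 CPM in the control libraries, a log2 fold change of -0.61 ± 0.09, and its gene overlaps CBARP on the other strand. MKNK2, whose kinase phosphorylates the cap-binding factor eIF4E downstream of ERK and p38, had 55.4, 49.3 and 52.9 CPM in the HSD52_OE libraries, against 110.0, 114 and 108 CPM in the control libraries. That is a log2 fold change of -1.07 ± 0.08, the lowest of the list. CSNK1G2, a casein kinase 1 gene, had 124 ± 3.43 CPM in HSD52_OE cells and 174 ± 16.3 CPM in control cells, a log2 fold change of -0.49 ± 0.09. DAPK3 and PIP5K1C, kinases of cell death and motility and of phosphoinositides, were at -0.48 and -0.54. In all 7 the HSD52_OE libraries lay below the control libraries with no overlap, since each had its highest HSD52_OE value under its lowest control value. The share separated downward was 29.3% over all tested genes and 34.3% over tested protein-coding genes.

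The promoters of 3 members are printed, those of both kinases of the MAP kinase route and that of CIRBP, a member that was higher. Each line gives the 250 bases before the start of the gene in RefSeq (GRCh38.p14), 5′ to 3′ on the gene's own strand, with capitals for the GC box, the letters GGGCGG or its complement CCGCCC, a match for SP family factors. The MAP2K2 window lies at chr19:4124123-4124372 on the minus strand, that of MKNK2 at chr19:2051245-2051494 on the minus strand and that of CIRBP at chr19:1269082-1269331 on the plus strand.
MAP2K2: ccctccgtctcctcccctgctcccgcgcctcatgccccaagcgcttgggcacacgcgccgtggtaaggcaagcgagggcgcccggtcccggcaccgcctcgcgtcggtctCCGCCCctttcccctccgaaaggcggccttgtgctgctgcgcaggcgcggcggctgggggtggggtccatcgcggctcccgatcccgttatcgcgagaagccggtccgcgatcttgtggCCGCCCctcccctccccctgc
MKNK2: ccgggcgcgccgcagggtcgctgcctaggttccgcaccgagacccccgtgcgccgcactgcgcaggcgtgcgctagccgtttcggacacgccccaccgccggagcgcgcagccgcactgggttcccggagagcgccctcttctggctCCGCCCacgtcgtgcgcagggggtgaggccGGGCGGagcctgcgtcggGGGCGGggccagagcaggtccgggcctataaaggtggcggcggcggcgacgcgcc
CIRBP: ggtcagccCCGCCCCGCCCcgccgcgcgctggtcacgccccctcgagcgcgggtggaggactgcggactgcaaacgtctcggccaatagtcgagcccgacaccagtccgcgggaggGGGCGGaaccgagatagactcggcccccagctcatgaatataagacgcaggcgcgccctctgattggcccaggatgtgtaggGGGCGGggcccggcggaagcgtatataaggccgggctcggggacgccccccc
The MAP2K2 window had 2 GC boxes and 74.0% G and C, the MKNK2 window 3 boxes and 77.2%, and the CIRBP window 4, of which 2 overlap, and 71.2%. All 3 are GC-rich windows of the kind usual for widely active genes. Of the 160 members, 129 matched a promoter in the RefSeq table. A GC box on either strand stood in 80.0% of the 105 promoters of tested members, in 73.3% of 86 promoters of the next 19p genes, in 66.9% of the 10743 promoters of tested protein-coding genes and in 42.3% of all 27305 promoters of this length. The letters CCAAT (either strand) were found in 38.1%, 38.4%, 35.3% and 33% of the same sets, TATAAA (either strand) in 5.71%, 8.14%, 5.32% and 11.1%, and the E-box CACGTG, which is its own complement, in 12.4%, 11.6%, 8.78% and 6.49%. The median GC content of these windows was 70.4% in tested members, against 65.4% in the next 19p genes and 64.8% in tested protein-coding genes. A match is a description of the letters and does not show that a factor binds.

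Genes of G protein signalling showed some of the lowest values. Of 7 members 5 were tested, 4 were called lower and 0 higher, with a median log2 fold change of -0.81. GNA11, the alpha subunit that couples receptors to phospholipase C, had 80.8, 78.5 and 84.0 CPM in the HSD52_OE libraries, against 121, 135 and 102 CPM in the control libraries, a log2 fold change of -0.56 ± 0.10. GNG7, a gamma subunit, had 48.9 ± 3.74 CPM in HSD52_OE cells and 85.7 ± 6.96 CPM in control cells, a log2 fold change of -0.81 ± 0.09. DIRAS1, a Ras-like GTPase gene, had 30.4, 28.0 and 32.3 CPM in the HSD52_OE libraries, against 80.0, 76.2 and 73.3 CPM in the control libraries. The groups were far apart, with a log2 fold change of -1.34 ± 0.09. TBXA2R, the thromboxane receptor, was also called lower at -1.11. S1PR4, a sphingosine 1-phosphate receptor, had a positive value of 1.29 ± 0.52 but under 2 CPM and was not called.

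**Figure D2:**
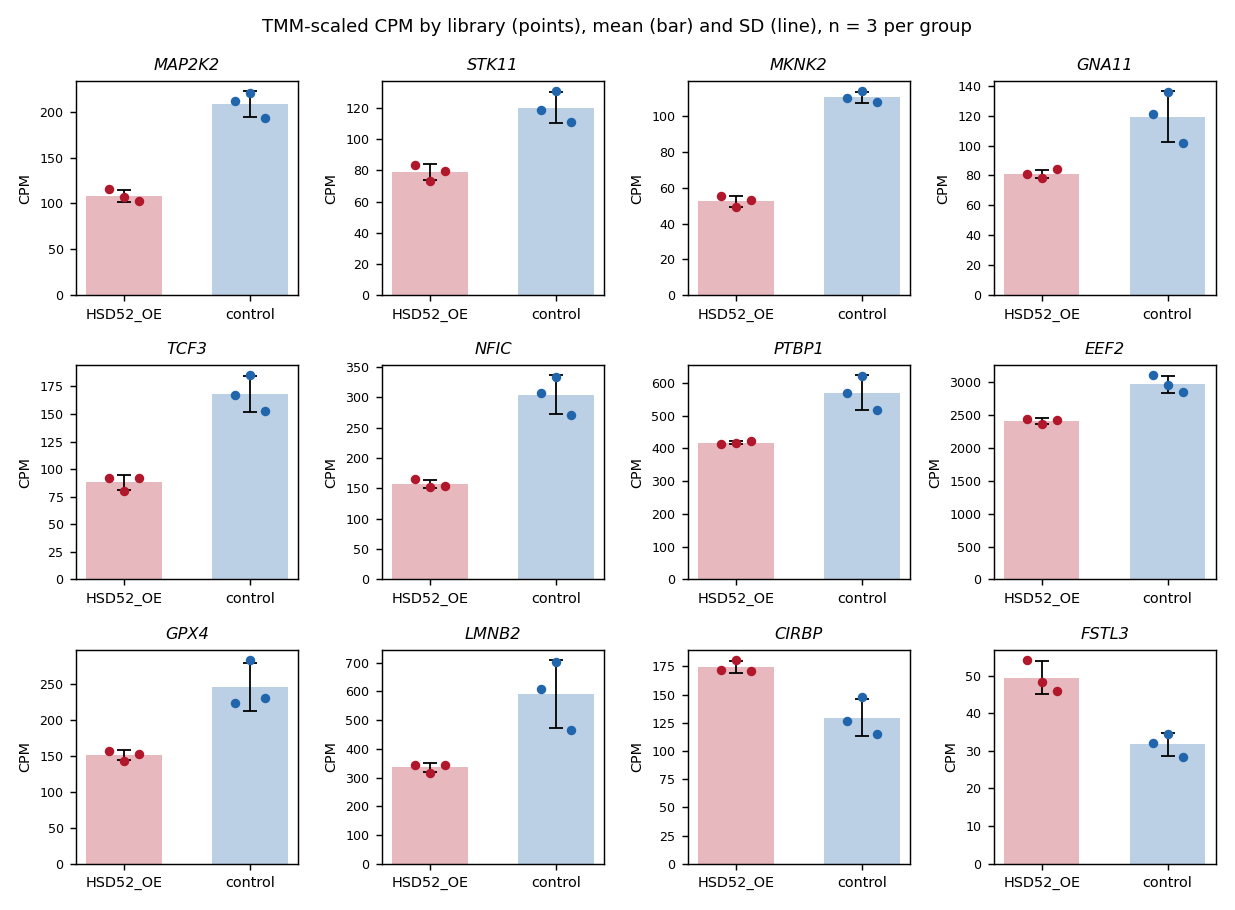
TMM-scaled CPM (y axis) of 12 block genes in each library (points), with the mean (bars) and SD (lines) of 3 HSD52_OE and 3 control libraries. In MAP2K2 and the 9 other genes of the first 10 panels every HSD52_OE point lies below every control point, and in CIRBP and FSTL3 every HSD52_OE point lies above.

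Most chromatin genes of the block were lower. Of 10 members all 10 were tested, 9 were called lower and 0 higher, with a median of -0.54. HMG20B, a subunit of the CoREST complex and the most abundant of them, had 319, 320.3 and 318 CPM in the HSD52_OE libraries, against 498, 570.3 and 504 CPM in the control libraries, a log2 fold change of -0.71 ± 0.09. DOT1L, the methyltransferase of histone H3 lysine 79, had 67.7, 62.9 and 63.3 CPM in the HSD52_OE libraries, against 103, 111 and 91.4 CPM in the control libraries, a log2 fold change of -0.65 ± 0.09. UHRF1, which brings the DNA methyltransferase DNMT1 to replicated DNA, had 121 ± 2.92 CPM in HSD52_OE cells and 174 ± 28.3 CPM in control cells, a log2 fold change of -0.52 ± 0.10. CHAF1A, the large subunit of the histone chaperone CAF-1, and the demethylase KDM4B were at -0.55 and -0.45. MBD3, of the NuRD complex, had 132 ± 6.43 CPM in HSD52_OE cells and 163 ± 32.6 CPM in control cells. At -0.30 ± 0.12 it was the called chromatin gene nearest to 0, and its call was lost in 10 of 16 alternatives, among them without HSD52_OE replicate 1, 2 or 3 and without control replicate 1 or 2, where the value ran from -0.34 to -0.15. MUM1, at -0.11, was not called.

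Transcription factors and co-regulators had a median log2 fold change of -0.75. Of 13 members 10 were tested, 9 were called lower and 0 higher. NFIC, of the nuclear factor I family, had 165, 153 and 154 CPM in the HSD52_OE libraries, against 307, 334 and 270.0 CPM in the control libraries, a log2 fold change of -0.95 ± 0.09. TCF3, which encodes the E proteins E12 and E47, had 92.2, 80.0 and 91.8 CPM in the HSD52_OE libraries, against 167, 185 and 152 CPM in the control libraries, at -0.93 ± 0.09 on the log2 scale. In both genes control replicate 3 was the lowest control and still lay above every HSD52_OE library. AES, a short Groucho-type co-repressor, had 163 ± 1.18 CPM in HSD52_OE cells and 273 ± 22.9 CPM in control cells, a log2 fold change of -0.74 ± 0.09. MED16 of the Mediator complex, the Groucho gene TLE2 and ZBTB7A were at -1.06, -1.28 and -0.76. TLE6 was not called at -0.21.

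Genes of RNA synthesis and processing held 16 members, of which 14 were tested, 12 called lower and 1 higher, with a median of -0.50. PTBP1, a splicing repressor that is known for holding back neuronal exons, had 412, 417 and 422 CPM in the HSD52_OE libraries, against 570.0, 622 and 516 CPM in the control libraries. The HSD52_OE libraries were nearly equal and the control libraries spread more widely, and the log2 fold change was -0.45 ± 0.09. DAZAP1, an RNA-binding splicing factor, had 196 ± 5.85 CPM in HSD52_OE cells and 268 ± 32.7 CPM in control cells, a log2 fold change of -0.45 ± 0.09. MEX3D, an RNA-binding ubiquitin ligase family gene, had 29.9, 28.0 and 30.7 CPM in the HSD52_OE libraries, against 66.5, 99.4 and 75.3 CPM in the control libraries, a log2 fold change of -1.44 ± 0.12, among the lowest of the block. POLR2E of RNA polymerase II, POLRMT, the mitochondrial RNA polymerase, and SF3A2 of the splicing factor SF3A were at -0.66, -0.73 and -0.72. CIRBP, the cold-inducible RNA-binding protein, went the other way, with 172, 181 and 171 CPM in the HSD52_OE libraries, against 126, 148 and 115 CPM in the control libraries, a log2 fold change of 0.43 ± 0.09. CIRBP overlaps the antisense gene CIRBP-AS1, whose reads cannot be told from it without strand, and CIRBP-AS1 had 2.23 ± 0.217 CPM in HSD52_OE cells and 1.85 ± 0.239 CPM in control cells. YJU2 was not called.

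Translation genes included the most abundant transcripts of the block. Of 6 members 6 were tested, 5 were called lower and 0 higher, with a median of -0.47. EEF2, the factor that moves the ribosome along the message, had 2441, 2363 and 2419.8 CPM in the HSD52_OE libraries, against 3102, 2961 and 2848 CPM in the control libraries. It was the most abundant member per length as well, at 598 CPM per kb in HSD52_OE cells and 738 CPM per kb in control cells. Its log2 fold change of -0.30 ± 0.10 was small. The call was lost in 5 of 16 alternatives, without HSD52_OE replicate 1, 2 or 3, at -0.32, -0.29 and -0.31, with the GC trend removed, at -0.21, and with library totals alone, at -0.18. RPS15, of the small ribosomal subunit, had 552 ± 11.6 CPM in HSD52_OE cells and 789 ± 105 CPM in control cells, a log2 fold change of -0.52 ± 0.10, with a level of 258 CPM per kb against 369 CPM per kb. OAZ1, the antizyme that limits polyamine synthesis, was at -0.72, and MRPL54, of the mitochondrial ribosome, was not called at -0.14.

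Genes of protein turnover ranged from well below control to no call. Of 9 members 8 were tested, 6 were called lower and 0 higher, with a median of -0.37. SGTA, a co-chaperone of tail-anchored proteins, had 125, 122 and 125 CPM in the HSD52_OE libraries, against 195, 226 and 188 CPM in the control libraries, a log2 fold change of -0.71 ± 0.09. CDC34, the ubiquitin-conjugating enzyme that works with SCF ligases, was at -1.06. THOP1, a cytosolic oligopeptidase, had 102 ± 5.83 CPM in HSD52_OE cells and 135 ± 19.9 CPM in control cells, a log2 fold change of -0.40 ± 0.10. FZR1, the CDH1 activator of the anaphase-promoting complex, had 77.3, 69.4 and 76.2 CPM in the HSD52_OE libraries, against 90.6, 99.1 and 69.5 CPM in the control libraries. Its log2 fold change was -0.22 ± 0.11 with overlapping groups, and it was not called, except without control replicate 3, at -0.36, and with no low-count filter. With the GC trend removed it was at 0.03. FEM1A, a substrate receptor, stood at 0.08 and was not called.

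Mitochondrial and metabolic genes were lower in all 6 tested of 7 members, with 6 called and a median of -0.60. GPX4, the selenoenzyme that reduces lipid peroxides and guards against ferroptosis, had 156, 143 and 153 CPM in the HSD52_OE libraries, against 223, 284 and 231 CPM in the control libraries. That gave a log2 fold change of -0.70 ± 0.10, with the HSD52_OE libraries far below the lowest control library. ATP5F1D, the delta subunit of ATP synthase, had 96.6 ± 6.87 CPM in HSD52_OE cells and 169 ± 16.5 CPM in control cells, a log2 fold change of -0.81 ± 0.09. GAMT, which makes creatine, and TIMM13, a small chaperone of the intermembrane space, were at -1.03 and -0.35, and TIMM13 overlaps LMNB2 on the same strand.

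In membrane trafficking 7 of 7 members were tested, with 5 called lower, 1 higher and a median of -0.63. AP3D1, a large subunit of the AP-3 adaptor that sorts cargo to lysosomes, had 148, 150.4 and 148 CPM in the HSD52_OE libraries, against 262, 254 and 223 CPM in the control libraries, a log2 fold change of -0.73 ± 0.09. SH3GL1, an endophilin, had 157 ± 4.20 CPM in HSD52_OE cells and 243 ± 17.5 CPM in control cells, a log2 fold change of -0.63 ± 0.08. SPPL2B, an intramembrane protease, was higher, with 57.2, 58.6 and 59.4 CPM in the HSD52_OE libraries, against 42.0, 48.6 and 35.9 CPM in the control libraries, a log2 fold change of 0.47 ± 0.10. SPPL2B overlaps LSM7 on the other strand, which was lower. In the list kept for lipid droplets and lipid transport 4 of 7 members were tested and 2 were called lower, with a median of -0.42. These 2 were PLIN3 and MFSD12, and MFSD12 carries cysteine, so its place in this list is doubtful. ABCA7 and ATP8B3, the other tested members, were not called at -0.22 and 0.08. MFSD12, a lysosomal and melanosomal cysteine transporter, had 347, 333 and 343 CPM in the HSD52_OE libraries, against 713, 749 and 587 CPM in the control libraries, a log2 fold change of -1.0 ± 0.10, and it overlaps HMG20B, FZR1 and C19orf71. PLIN3, a lipid droplet coat gene, had 60.3 ± 2.00 CPM in HSD52_OE cells and 92.2 ± 12 CPM in control cells, a log2 fold change of -0.61 ± 0.10.

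The cytoskeleton and lamina genes had a median of -0.82, with 5 of 5 tested members called lower among 8. LMNB2, which encodes lamin B2, had 345, 316 and 344 CPM in the HSD52_OE libraries, against 608, 701 and 465 CPM in the control libraries, a log2 fold change of -0.82 ± 0.12. Control replicate 3 was the lowest control library here, as it was for 93 of the 118 tested members. CNN2, a calponin that binds actin, had 62.5 ± 4.99 CPM in HSD52_OE cells and 132 ± 17.9 CPM in control cells, a log2 fold change of -1.08 ± 0.10. PALM, paralemmin, had low counts, with 2.64, 3.33 and 3.81 CPM in the HSD52_OE libraries, against 9.57, 8.77 and 8.60 CPM in the control libraries, a log2 fold change of -1.46 ± 0.17. Of 7 neuronal members 4 were tested and 4 called lower, median -0.78. CBARP, a regulator of voltage-gated calcium channels, had 11.6, 10.5 and 9.85 CPM in the HSD52_OE libraries, against 29.7, 32.6 and 28.5 CPM in the control libraries, a log2 fold change of -1.51 ± 0.11. APC2, a relative of the tumour suppressor APC, had 32.5 ± 2.01 CPM in HSD52_OE cells and 39.6 ± 5.38 CPM in control cells, a log2 fold change of -0.29 ± 0.11. The call was lost in 8 of 16 alternatives, among them without HSD52_OE replicate 1, 2 or 3 and without control replicate 1 or 2, where the value ran from -0.32 to -0.23, and the value was 0.15 with the GC trend removed.

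Cell surface and secreted genes were the list with the median nearest to 0. Of 14 members 7 were tested, 3 were called lower and 1 higher, with a median of -0.20. BSG, basigin, the partner of lactate transporters, had 559, 531 and 562 CPM in the HSD52_OE libraries, against 785, 760.2 and 569 CPM in the control libraries, a log2 fold change of -0.36 ± 0.11, and per length it was the third most abundant member in control cells. The call was lost in 2 of 16 alternatives, without HSD52_OE replicate 2, at -0.33, and with library totals alone, at -0.23. FSTL3, a binder of activin, was higher, with 54.2, 48.3 and 45.8 CPM in the HSD52_OE libraries, against 32.1, 34.6 and 28.4 CPM in the control libraries. Its log2 fold change was 0.64 ± 0.10, and every HSD52_OE library exceeded every control library. MYDGF, a secreted growth factor first described from bone marrow, had 212, 217 and 219 CPM in the HSD52_OE libraries, against 188, 217 and 155 CPM in the control libraries, at 0.21 ± 0.11 on the log2 scale. It was not called, except without control replicate 2, at 0.33, and in 2 other alternatives. SEMA6B, a semaphorin, was lower at -0.85.

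Among innate immunity and stress genes 5 of 6 members were tested, 3 called lower and 0 higher, with a median of -0.64. TICAM1, the TRIF adaptor of TLR3, had 11.5, 10.8 and 12.2 CPM in the HSD52_OE libraries, against 25.6, 27.8 and 22.3 CPM in the control libraries, a log2 fold change of -1.13 ± 0.12. TNFAIP8L1, a TIPE family gene that overlaps MYDGF on the other strand, had 32.2 ± 1.24 CPM in HSD52_OE cells and 29.4 ± 5.6 CPM in control cells, a log2 fold change of 0.13 ± 0.12. It was not called, and the value was -0.03 without control replicate 3. The 5 neutrophil granule and granzyme genes, ELANE, PRTN3, AZU1, PRSS57 and GZMM, were not tested, since their counts were at or near 0 in both groups.

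Members outside every role list gave a like picture, with 15 of 20 tested called lower, 2 higher and a median of -0.62 among 30 members. MIDN, midnolin, which carries short-lived nuclear proteins to the proteasome, had 118, 106 and 109 CPM in the HSD52_OE libraries, against 198, 234 and 198 CPM in the control libraries, a log2 fold change of -0.92 ± 0.09. BTBD2, a BTB domain gene, had 69.4, 72.2 and 72.7 CPM in the HSD52_OE libraries, against 139.5, 161 and 141 CPM in the control libraries, a log2 fold change of -1.04 ± 0.08. The control libraries of both genes lay well above the highest HSD52_OE library. ABHD17A, a depalmitoylase that acts on N-Ras, had 107 ± 3.72 CPM in HSD52_OE cells and 172 ± 26.8 CPM in control cells, a log2 fold change of -0.69 ± 0.10. HDGFL2, a chromatin reader of the HDGF family, and SLC39A3, a zinc importer, were at -0.67 and -0.57. PLEKHJ1 was the called gene of this set nearest to 0, at -0.29, and PEAK3, TMPRSS9 and MPND were not called.

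**Figure D3:**
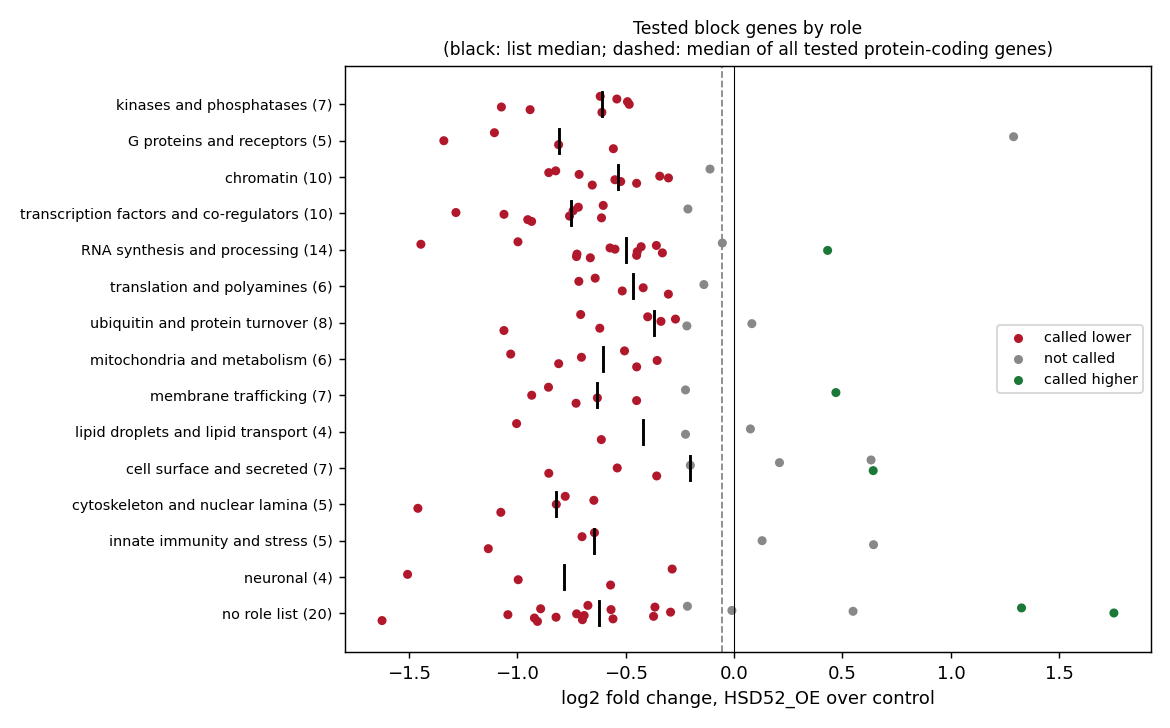
Log2 fold changes (HSD52_OE over control, x axis) of tested block genes by role list (y axis, number tested in brackets), coloured by call, with a black line at each list median and a dashed line at the median of all tested protein-coding genes. List medians run from -0.82 for cytoskeleton and nuclear lamina to -0.20 for cell surface and secreted, and the called-higher genes are FSTL3, CIRBP, SPPL2B, IZUMO4 and ANKRD24.

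The 5 members called higher were FSTL3, CIRBP, SPPL2B, IZUMO4, of a family of sperm proteins, and ANKRD24, known in mouse for the stereocilia of hair cells. IZUMO4 and ANKRD24 were scarce and passed the low-count filter through the HSD52_OE libraries, so their difference was partly fixed by that filter. IZUMO4 had 1.42 ± 0.399 CPM in HSD52_OE cells and 0.421 ± 0.242 CPM in control cells, a log2 fold change of 1.75 ± 0.42, and ANKRD24 had 0.864 ± 0.31 CPM in HSD52_OE cells and 0.344 ± 0.179 CPM in control cells, a log2 fold change of 1.33 ± 0.48. The 18 not called were ABCA7, MUM1, PCSK4, ATP8B3, AMH, PEAK3, TMPRSS9, TLE6, S1PR4, NCLN, FZR1, MRPL54, EBI3, YJU2, MPND, TNFAIP8L1, MYDGF and FEM1A. The 17 members of 5 to 20 CPM on average had a median log2 fold change of -0.57, the 55 members of 20 to 100 CPM had -0.61 and the 37 members of at least 100 CPM had -0.63. Protein-coding genes outside the block moved with level as well, with medians of 0.01 at 5 to 20 CPM, -0.10 at 20 to 100 CPM and -0.16 from 100 CPM. The medians of the members in these 3 classes lay close together. The 3 members of 2 to 5 CPM had a median of -0.64. No median is given for the 6 members under 2 CPM, of which 0 were called lower and 2 higher, so they do not share the pattern of the other classes. Of 1314 tested protein-coding genes outside the block at that level, 118 were called lower and 438 higher.

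Many block genes have a relative elsewhere that does similar work, and these paralogs give a view of the same gene families outside the block. Of 63 pairs chosen from known families, 56 had both genes tested, and in 49 the log2 fold change of the block gene was below that of its paralog. The 56 paralogs had a median of -0.14, with 21 called lower, 6 higher and 29 neither, against -0.62 with 34 lower, 2 higher and 3 neither over the 39 block genes with a listed paralog. The background of tested protein-coding genes was 30.1% lower and 21.4% higher, and the count of paralogs called higher was 3 without HSD52_OE replicate 1 and 11 with library totals alone. MAP2K1, which encodes MEK1, was at -0.23 ± 0.09, while MAP2K2 was at -0.94 ± 0.09. MKNK1 was at 0.01, GNAQ at 0.07, TCF4 at 0.15 and LMNB1 at -0.15. NFIX, a nuclear factor I gene also on chromosome 19, was lower at -0.65, and PTPRD and MEX3B were called lower at -1.81 and -1.04, where PTPRS and MEX3D were at -0.62 and -1.44. RBM3, the other cold-inducible RNA-binding gene, was higher at 1.05 ± 0.09, as CIRBP was at 0.43 ± 0.09. GADD45A, CNN1 and DPP8 were called higher at 0.59, 1.35 and 0.62, while GADD45B, CNN2 and DPP9 were at -0.70, -1.08 and -0.27. CNN1, itself one of the next 19p genes, was scarce, at 1.56 ± 0.614 CPM in HSD52_OE cells and 0.606 ± 0.0789 CPM in control cells. It passed the low-count filter through the HSD52_OE libraries, so its difference was partly fixed by that filter. Since the block genes were picked for low values in this contrast, the lower value of a block gene than of its paralog is a description.

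**Figure D4:**
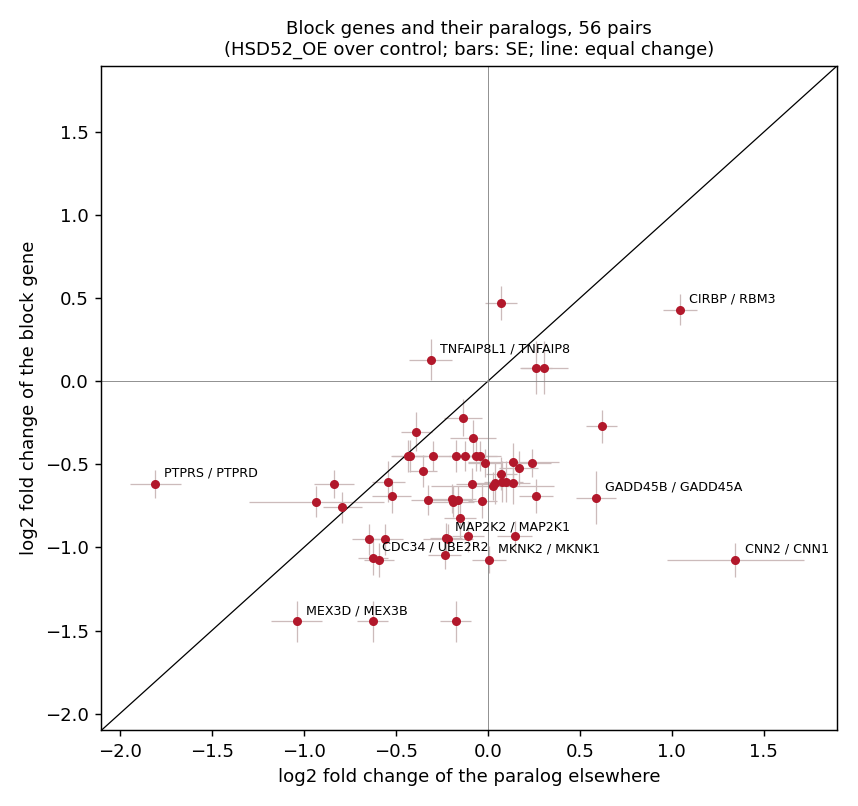
Log2 fold change of a block gene (y axis) against that of its paralog outside the block (x axis) for 56 pairs, HSD52_OE over control, with standard errors and a line of equal change. In 49 pairs the point lies under the line, and CIRBP with RBM3 lies at the upper right.

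Genes that act in the same complexes or cascades as block members, but lie elsewhere, were called in both directions. Of 111 partner genes in 12 complexes or pathways, 42 were called lower, 15 higher and 54 neither, with a median of -0.14, where the background of tested protein-coding genes was 30.1% lower and 21.4% higher. The count called higher was 9, 6 and 9 without HSD52_OE replicate 1, 2 and 3, 8 without control replicate 1 and 23 without control replicate 3. The count called lower was 67 with the GC trend removed and 25 with library totals alone, so neither count is firm. Among 11 partners in RNA polymerase II, 4 were lower and 0 higher with a median of -0.20, and the block gene POLR2E was at -0.66 ± 0.11. In Mediator, 5 of 27 were lower and 5 higher with a median of 0.00, against -1.06 for MED16. Of 9 partners in SF3 5 were lower and 1 higher, with a median of -0.26, against -0.72 for SF3A2. In ATP synthase 3 of 8 were lower and 0 higher, and the median was -0.20, against -0.81 for ATP5F1D. In the RAS, RAF and ERK cascade 4 of 7 were lower and 0 higher, with a median of -0.23, against -0.94 for MAP2K2. Of 10 genes that act with STK11 on AMPK 2 were lower and 3 higher, with a median of 0.02, against -0.61 for STK11. Of 7 LSM genes 3 were lower and 2 higher (median 0.02), against -0.33 for LSM7, and of 5 in the small TIM set 1 was lower and 3 higher (median 0.27), against -0.35 for TIMM13. In AP-3 2 of 5 were lower and 0 higher (median -0.01), against -0.73 for AP3D1. In respiratory complex III 4 of 8 were lower and 1 higher (median -0.22), against -0.45 for UQCR11. The block gene stood below the median of its partners in each of these 10 sets. Since the block genes were picked for low values in this contrast, that order is a description. The partner lists were also written with earlier results of these data known. Of the CAF-1 subunits CHAF1B and RBBP4 and the replication clamp gene PCNA all 3 were called lower, with a median of -0.61, against -0.55 for CHAF1A. In NuRD 7 of 12 were lower and 0 higher with a median of -0.28, against -0.30 for MBD3. In CAF-1 and NuRD the block gene thus stood close to the median of its partners.

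The next stretch of 19p also had a negative median, nearer to 0. Of its 168 genes 103 were tested, 45 were called lower, 12 higher and 46 neither, and the median log2 fold change was -0.27 with quartiles of -0.51 and 0.04. For this and the other sets of this paragraph, the background was 30.1% of tested protein-coding genes called lower and 21.4% higher. Over all tested genes, non-coding ones included, it was 25.6% and 25%. The border to the block was chosen on this contrast, so the difference between both sets was not tested. Per 1 Mb window its median was -0.03 for 11 genes between 5 and 6 Mb, then -0.35, -0.36 and -0.34 in the windows up to 9 Mb, -0.15 for 5 genes between 9 and 10 Mb and -0.23 in both windows from 10 to 12 Mb. The rest of the chromosome, 843 tested protein-coding genes, had a median of -0.13. Genes left out of the block by name were few. Of 6 ZNF and NDUF genes inside the interval 5 were tested, and 2 were called lower and 0 higher, NDUFS7 of respiratory complex I at -0.75 ± 0.11 and ZNF555 at -0.53 ± 0.19. Of 118 non-coding genes inside the interval 17 were tested, and 1, AC006538.1, was called lower at -1.18, while AC012615.1 and AC012615.6 were called higher at 0.97 and 1.33. Their median was 0.27, and 12 of the 17 overlap another gene. The level of these non-coding genes had a median of 1.26 CPM. At under 2 CPM, the 1314 tested protein-coding genes outside the block had a median log2 fold change of 0.45. No direction is firm at such levels, so nothing is read from the non-coding median. Of the tested members 75 overlap another gene in the table, with a median of -0.56, and 43 do not, with a median of -0.70 and 34 called lower. Both medians describe genes picked for low values in this contrast.

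The block is richer in G and C than most genes, and GC content moved with the fold change across the genome. The median GC content of the longest transcript was 62.6% in tested members, against 60.2% in the next 19p genes and 48.1% over tested protein-coding genes. Outside the block the median log2 fold change was 0.09 for genes under 45% GC, -0.18 at 55% to 60%, -0.28 at 60% to 65% and -0.38 from 65%. Members at the same GC had -0.61, -0.56 and -0.63 in the last 3 of these classes, with 27, 51 and 34 genes, and the next 19p genes had -0.22, -0.29 and -0.36. Since members were picked for low values in this contrast, their medians in these classes are a description, and the part of GC content in the result was not tested. GC-rich genes also moved with the libraries. The 1827 genes outside the block with at least 60% GC had median log2 deviations from the control mean of -0.26, -0.31 and -0.29 in HSD52_OE libraries, against 0.02, 0.13 and -0.15 in control libraries, and the members had the same order among control libraries. With a trend on GC content and exon length removed, the median of the members was -0.44, with 98 of 118 negative and quartiles of -0.68 and -0.18. Under the same correction the next 19p genes had -0.19, GC-rich genes outside the block -0.15 and all tested protein-coding genes -0.14. Tested members had a median exon length of 4260.5 bases and spanned a median of 16470.5 bases, against 5178 and 33782 bases over tested protein-coding genes. The mean level of a member had a median of 57.1 CPM, against 31.1 CPM over tested protein-coding genes.

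**Figure D5:**
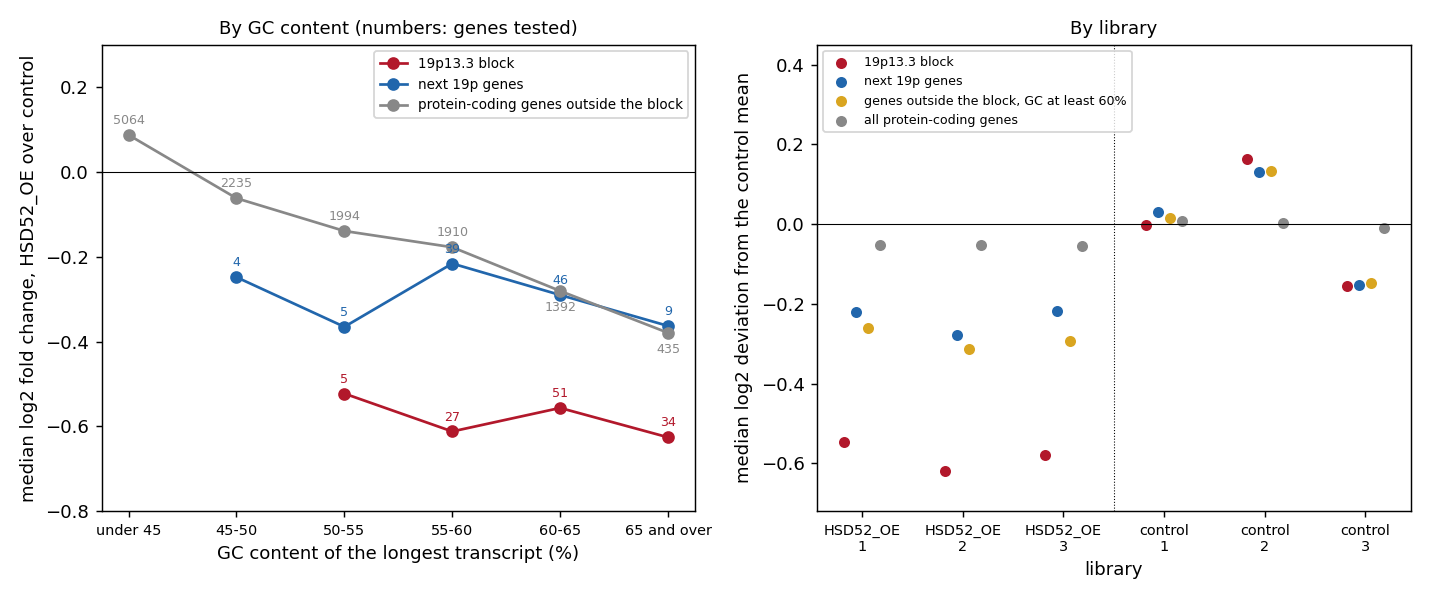
Left, median log2 fold change (HSD52_OE over control, y axis) by GC content of the longest transcript (x axis, %) for block genes, the next 19p genes and protein-coding genes outside the block, with the number of genes at each point. Right, median log2 deviation from the control mean (y axis) in each library (x axis) for 4 gene sets, where block genes lie at -0.55, -0.62 and -0.58 in HSD52_OE libraries and between -0.16 and 0.16 in control libraries.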

How the data were processed

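Bulk RNA sequencing of 6 LN229 libraries was analysed, 3 labelled HSD52 overexpression and 3 labelled wild type. Per the labels' protocols, poly-A RNA was selected from TRIzol-extracted RNA, fragmented and primed with random hexamers for an Illumina NovaSeq instrument. The deposited table held raw counts of reads for each gene, with no scaling by the authors. The submitters' processing notes list CASAVA, HISAT2 2.0.5 and featureCounts 1.5.0-p3 with hg38. No source used here gives a strand setting, so overlapping and antisense genes are uncertain. Coordinates in the table were identical to GENCODE 29 for 58724 of 58735 genes, and GC content was taken from that release.

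Genes were filtered with filterByExpr, scaled by TMM and tested by the quasi-likelihood method of edgeR 4.0.16 (R 4.3.3, limma 3.58.1, robust fit, group as the one term). P-values were adjusted by Benjamini-Hochberg across the 16322 tested genes. CPM values are TMM-scaled, with SD over libraries, and fold changes carry the standard error of the fit. The steps were tested on simulated data. Members, role lists, paralogs, partners and tests were chosen with earlier results of these data known. Members named with values were the 2 most abundant of each role list, 9 genes listed by name, the 4 highest and 4 lowest fold changes among genes averaging 5 CPM or more, and the 3 tested members nearest each end of the interval. The 3 tested protein-coding genes just outside its inner end were named as well, and none lies beyond the other end. Other genes were named after their values were seen. Alternatives covered RLE factors, library totals, TMM without chromosome 19, other low-count filters, DESeq2 1.42.0, voom, the replicate number as a block, leaving out single libraries, protein-coding genes alone, removal of a GC and length trend, and other member rules. Reads carry no molecular identifiers. The standard errors of the fit and the p-values measure the spread between these libraries.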

Additional observations from a re-analysis of the deposited data

How the results depend on the processing

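The low level of the block was kept in every alternative run. The block was picked for low values in these same libraries, so these runs are a description and no independent check. The median of tested members was -0.68 to -0.51 when each library was left out, and 86 to 98 were called lower and 4 to 7 higher. Over all genes the counts called lower and called higher moved as well, each staying between 3313 and 4529 in these runs. Across all alternatives each of them stayed between 2933 and 5770. The background shares of the main fit therefore do not hold for the single runs, and nothing is read from the member counts. It was -0.44 with the GC and length trend removed, with 85 lower and 7 higher. Under that correction the median of all tested protein-coding genes was -0.14, against -0.06 in the main fit. With library totals alone the median of tested members was -0.48, with 82 lower and 8 higher. Library totals moved the median of all genes to 0.13, so that scaling shifts every fold change by about that much. DESeq2 called 96 members lower and 5 higher, and limma-voom 93 and 6. With the replicate block, 95 members were lower and 6 higher with a median of -0.59. Deviations of same-numbered libraries were nearly uncorrelated (correlations of 0.038, 0.031 and 0.033). The labels do not say whether the numbers pair libraries, and a shared factor of small effect could give correlations this low. Among the 43 members without overlap 34 were lower and 2 higher, and among the 101 members with a mean of at least 10 CPM 3 were higher.

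Of 111 complex partners the count called higher, 15, became 9 with DESeq2, 8 with the GC trend removed, 24 with library totals, 8 with no low-count filter and 6 to 23 when each library was left out. The count called lower, 42, became 67 with the GC trend removed and 25 with library totals. The paralogs called higher, 6, became 11 with library totals and ran from 3 to 8 when each library was left out. The cause of these differences was not tested.

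For single named genes, 703 of 736 comparisons over 46 genes kept their direction and call, 25 lost the call, 5 gained it and 3 changed sign. Those 3 were APC2 at 0.15 and FZR1 at 0.030 with the GC trend removed, and TNFAIP8L1, which was at -0.028 without control replicate 3 and ran from that to 0.21 when each library was left out. Members under 2 CPM rest on few counts, and no direction is firm there.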
